A study of Mus musculus with 4 samples.

Results

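The 9 genes described here encode transcription factors of the eye field, of retinal progenitors and of Notch signalling that remain in use in Müller glia and in inner neurons of the mature retina. They are *Pax6*, *Six3*, *Six6*, *Rax*, *Lhx2*, *Sox2*, *Sox9*, *Hes1* and *Hes5*. They were found by their symbols among 22095 loci of a table of RNA-seq expression values, and each symbol matched 1 locus. The values came from 4 libraries of retinal RNA from mice of 3 weeks. A pair of libraries was made from *rd7* mice, which are labelled as *Nr2e3* mutants of the C57BL/6J strain, and the other pair from wild-type C57BL/6J mice. *Nr2e3* encodes a nuclear receptor of rod development, and the photoreceptors of *rd7* retinas are hybrids of rods and cones. A library held the retinas of 2 females and 2 males, 8 in all, so that the replicate error given here is that of pooled animals.

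Eye-field factors are homeodomain proteins that specify the optic vesicle, and the SOX factors maintain the neural progenitors that arise from it. Notch receptors, cut after they bind a ligand on a neighbouring cell, release a fragment that joins the DNA-binding protein RBPJ and switches on *Hes* genes, whose products repress neurogenic genes. When retinal development ends, most cells lose many of these factors. Müller glia keep *Rax*, *Lhx2*, *Sox2*, *Sox9* and the *Hes* genes, while amacrine and ganglion cells keep *Pax6*, *Six3* and *Six6*, and *Pax6* is also found in Müller glia and horizontal cells.

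The 250 bases that precede the start of *Six6* and *Hes5* are shown because *Six6* differed most between the genotypes and *Hes5* is the classical Notch target among the 9 genes. The sequences are those of RefSeq, placed on mm9 by an exact match. Of the members, 6 were placed in this way, and *Rax* was not searched. *Six6* has its window at chr12:74040619-74040868 and *Hes5* at chr4:154334782-154335031, both on the plus strand. Capitals mark the letters of the RBPJ core (TGGGAA), of the N box that HES proteins bind (CACNAG) or of a recognition hexamer of NR2E3 (AAGTCA), each searched on both strands.
*Six6*: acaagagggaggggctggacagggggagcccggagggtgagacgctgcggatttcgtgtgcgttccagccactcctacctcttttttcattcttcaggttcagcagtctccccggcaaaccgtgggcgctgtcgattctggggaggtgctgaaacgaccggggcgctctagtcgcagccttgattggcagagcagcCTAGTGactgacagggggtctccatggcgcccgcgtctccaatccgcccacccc
*Hes5*: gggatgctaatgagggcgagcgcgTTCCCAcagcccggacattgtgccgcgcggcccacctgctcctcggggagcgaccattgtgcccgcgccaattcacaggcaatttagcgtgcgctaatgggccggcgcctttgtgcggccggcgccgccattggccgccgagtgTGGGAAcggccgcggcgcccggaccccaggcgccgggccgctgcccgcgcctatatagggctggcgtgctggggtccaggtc

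The *Hes5* window held the RBPJ core at 226 bases before the start on the minus strand and at 82 bases before it on the plus strand. The same letters occur in 21.6% of 32851 promoter windows of this length. The *Six6* window, whose RefSeq start lies 63 bases before the locus start in the files, held an N box 54 bases before that RefSeq start, which 36.7% of the windows also hold. *Lhx2* also had an RBPJ core in its window, 9 bases before the start. The *Pax6* window, whose RefSeq start lies 6018 bases from the listed locus start, held an N box 136 bases before that RefSeq start. None of the 6 windows held the NR2E3 hexamer, which is found in 13.1% of all windows. These matches describe the letters of the windows only.

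Expression was given as FPKM, sequenced fragments per kilobase of transcript, scaled to the total of mapped fragments. The files hold no read counts. From the lowest values of genes with a single annotated transcript, the 4 libraries were estimated to hold between 3.5e+07 and 3.73e+07 reads. Values of log2(FPKM + 0.1) were compared between genotypes with limma over the 12655 genes whose FPKM averaged 1 or more. The false discovery rate (FDR) was held at 5%. The mutated gene, *Nr2e3*, had an FPKM of 2493 and 1589 in *rd7* retinas and of 385 and 394 in wild-type retinas. Photoreceptor genes were abundant, as the labelled tissue implies, and *Gnat1*, the rod transducin, lay between 2710 and 5206 FPKM in all 4 libraries. Without further scaling the middle log2 fold change over the genes tested was 0.15, and with median-ratio scaling, which sets each library by the median ratio of its genes, it was -0.0049. A log2 fold change near 0.15 is therefore that of the middle gene of the table, and values with this scaling are given for members whose call it altered and for lists whose counts it altered.

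All 9 genes passed the filter. In wild-type retinas *Pax6* had the highest level, at 74.3 ± 4.85 FPKM (SD, n = 2 libraries), followed by *Rax* at 63.2 ± 3.57 and *Six3* at 29.2 ± 1.03. *Lhx2*, *Sox2* and *Six6* followed at 11.1, 10.7 and 10.6 FPKM, and neighbours among these 3 genes overlapped between libraries. *Hes1* was at 6.96 ± 0.377 FPKM, *Hes5* at 3.44 ± 0.169 and *Sox9* at 3.2 ± 0.0911. The highest and the lowest member were 23.2-fold apart, which placed *Pax6* above 94.1% and *Sox9* above 19.6% of the genes tested. In *rd7* retinas the order was kept but for *Six6*, which at 18.3 ± 0.65 FPKM lay above *Sox2* and *Lhx2*, and for *Sox2*, which lay above *Lhx2*.

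**Figure D1:**
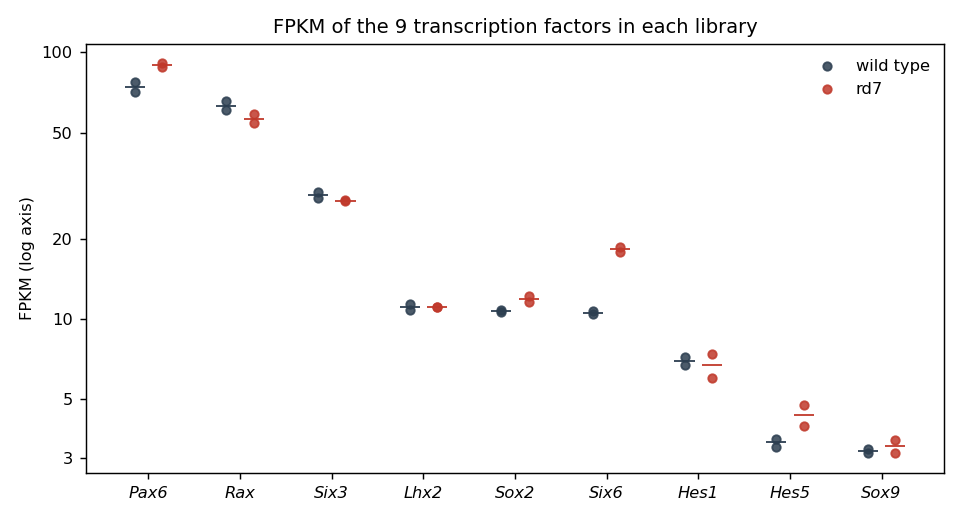
FPKM (log axis) of the 9 genes in each of the 2 wild-type and 2 *rd7* libraries, with points for libraries and lines for the mean of a genotype. *Six6* shows the widest gap between genotypes, from 10.6 to 18.3 FPKM, while the points of *Lhx2*, *Sox9* and *Hes1* overlap.

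Setting *rd7* beside wild-type retinas asks whether factors of progenitors and glia differ in a retina whose photoreceptors are hybrids. At an FDR of 5%, *Six6* and *Pax6* were higher in *rd7*, which is 2 of 9 genes (22.2%), and 0 were lower. The share of higher genes over the whole table was 37.6% and that of lower genes 8.80%. With 1 library left out, between 1 (without wild-type replicate 1) and 3 members were higher and between 0 and 1 (without *rd7* replicate 1) lower. Such a fit takes its error from the pair of the other genotype alone, so these counts do not measure how firm the differences are. The median log2 fold change of the 9 genes was 0.05 beside 0.15 for all genes. Both *rd7* values lay above both wild-type values for 4 members and below them for 2, as in 57.1% and 19.5% of all genes tested. With median-ratio scaling 1 member, *Six6*, was higher and 2, *Six3* and *Rax*, were lower, against 19.7% and 19.6% of all genes. In bulk tissue fewer cells of a type and less RNA per cell cannot be told apart.

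**Figure D2:**
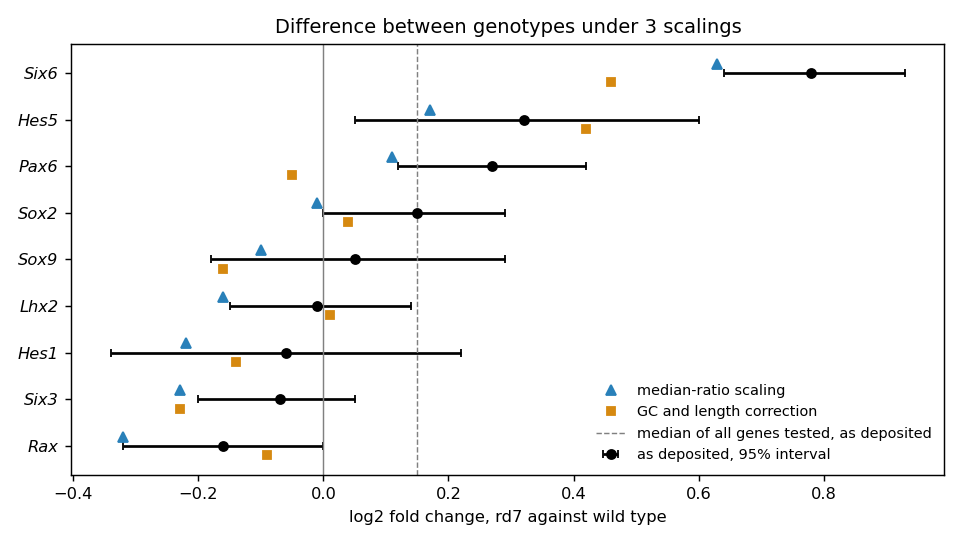
Log2 fold change (*rd7* against wild-type) of the 9 genes from limma, with circles and 95% intervals for the deposited FPKM, triangles for median-ratio scaling and squares for values corrected for exonic GC content and length. *Six6* lies between 0.46 and 0.78 under all 3, whereas *Pax6* moves from 0.27 to -0.05.

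*Six6* encodes a homeodomain factor of the sine oculis family of the optic vesicle that is needed for progenitor growth and for ganglion cells. It lies on the plus strand of chromosome 12 of mm9, from 74040932 to 74045886, with 2 exons. Replicates 1 and 2 of *rd7* gave 17.8 and 18.7 FPKM, and those of wild type 10.7 and 10.4. Both *rd7* values were far above both wild-type values. The log2 fold change was 0.78 (standard error 0.06, adjusted p = 0.000811 from limma), or 1.72-fold, and 95.7% of the genes tested had a lower value. Each value rested on an estimated 1536 to 2593 reads, which gives a counting error of at most 2.55%. The call held under median-ratio scaling (0.63, limma adjusted p = 0.002) and under the correction for GC content and length (0.46, adjusted p = 0.00606 from limma).
An antisense neighbour of *Six6*, *4930447C04Rik*, covers 3.5% of the exonic bases of *Six6* in the annotation, although its locus in the files ends before *Six6*. It had between 11.1 and 13.6 FPKM, with a log2 fold change of 0.23.

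*Pax6*, the paired-box regulator of eye development, lies on chromosome 2 from 105516602 to 105537226 on the plus strand. It had an FPKM of 90.9 and 88.0 in *rd7* and of 70.9 and 77.7 in wild-type retinas. The groups did not overlap, and the wild-type libraries differed more from each other than the *rd7* libraries did. The log2 fold change was 0.27 (standard error 0.06, adjusted p = 0.0163 from limma). Of the 2 calls among the members this one depended on the setting. *Pax6* was not called after median-ratio scaling (0.11, limma adjusted p = 0.153) and without a filter on low values (adjusted p = 0.109 from limma). Its log2 fold change was 0.20 without wild-type replicate 1, and the sign turned under the GC and length correction (-0.05, adjusted p = 0.571 from limma). The neighbouring locus *Elp4* had a log2 fold change of 0.27, and *Pax6os1*, which does not overlap *Pax6* in the files, one of 0.07.

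*Six3*, a repressor that protects the anterior neural plate from posterior signals, lies on chromosome 17 from 86020174 to 86025530. Its FPKM was 27.9 and 27.6 in *rd7* and 30.0 and 28.5 in wild-type retinas, a narrow range in which both *rd7* values were the lower ones. The difference did not pass the test (log2 fold change -0.07, 95% interval -0.20 to 0.05, adjusted p = 0.288 from limma). It was called lower after median-ratio scaling (-0.23, limma adjusted p = 0.0221) and after the GC and length correction (-0.23, adjusted p = 0.0302 from limma). That correction left 12.4% of all genes called higher and 15.0% lower, and among the members 2 higher (*Six6* and *Hes5*) and 1 lower (*Six3*). *Six3os1*, a noncoding locus that ends before *Six3* begins, had an FPKM of 25.3 and 20.1 in *rd7* and of 18.6 and 17.1 in wild-type retinas. Both *rd7* values of *Six3os1* lay above its wild-type values, and the difference did not pass the test (0.34, adjusted p = 0.0556 from limma).
Within a library, the log2 ratio of *Six3* to *Six6* was 0.65 and 0.56 in *rd7* and 1.48 and 1.45 in wild-type retinas. A scaling factor common to a library does not move this ratio, which differed by -0.86 between the genotypes, far more than between replicates. No test was run on the ratios given here. How often ratios between other pairs of genes keep the genotypes apart was not counted.

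*Rax*, the retinal homeobox factor that Müller glia keep, lies on the minus strand of chromosome 18 from 66094293 to 66098743. It had an FPKM of 58.6 and 54.2 in *rd7* and of 65.7 and 60.6 in wild-type retinas. Both *rd7* values lay under both wild-type values by a margin smaller than the spread within each pair. The log2 fold change was -0.16 (95% interval -0.32 to -0.0026, adjusted p = 0.0875 from limma). *Rax* was called lower after median-ratio scaling (-0.32, limma adjusted p = 0.0159), and not with the GC and length correction (-0.09). Its log2 fold change was -0.22 without *rd7* replicate 1 and -0.11 without *rd7* replicate 2. The annotated antisense gene *Raxos1* covers 49.0% of the exonic bases of *Rax*. No step that marks the strand is described for these libraries, so that reads from the opposite strand would be counted on *Rax*.

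*Lhx2*, a LIM homeodomain factor that links the eye field to the optic vesicle and later holds Müller glia in a resting state, lies on chromosome 2 from 38206828 to 38225248. Its FPKM was 11.1 and 11.1 in *rd7* and 11.4 and 10.8 in wild-type retinas. The *rd7* values fell between the wild-type values, with a log2 fold change of -0.01 and a 95% interval of -0.15 to 0.14. A rise or a fall larger than these bounds is outside the interval for the deposited values only. With median-ratio scaling the log2 fold change was -0.16 (95% interval -0.31 to -0.0087) and was not called (adjusted p = 0.0871 from limma). The log2 ratio of *Rax* to *Lhx2* within a library was 2.40 and 2.29 in *rd7* and 2.52 and 2.49 in wild-type retinas, with a mean difference of -0.16 and no overlap.

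*Sox2*, which keeps neural progenitors undifferentiated and marks Müller glia and a class of amacrine cells, is a gene of 1 exon on chromosome 3 from 34548927 to 34551382. It had an FPKM of 11.6 and 12.2 in *rd7* and of 10.8 and 10.6 in wild-type retinas, without overlap. Its log2 fold change of 0.15 equalled that of the middle gene of the table and did not pass the test (95% interval 0.001 to 0.29, adjusted p = 0.0897 from limma). The value was 0.18 without *rd7* replicate 1 and 0.11 without *rd7* replicate 2, and it turned to -0.01 with median-ratio scaling. *Sox2ot*, a noncoding transcript on the same strand whose locus spans *Sox2* without sharing its annotated exonic bases, was called higher, from 2.2 and 2.58 FPKM to 3.28 and 2.95 (0.37, adjusted p = 0.0487 from limma). *Sox2ot* was not called after median-ratio scaling (0.22, limma adjusted p = 0.177).

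*Sox9*, a SOX factor of gliogenesis present in Müller glia and in the pigment epithelium, lies on chromosome 11 from 112643524 to 112649071. With 3.15 and 3.5 FPKM in *rd7* and 3.26 and 3.13 in wild-type retinas, it was the lowest of the 9 genes, and the groups overlapped. The log2 fold change was 0.05 (95% interval -0.18 to 0.29, adjusted p = 0.674 from limma), with an estimated 463 to 507 reads for each value. The log2 ratio of *Sox9* to *Sox2* was -1.88 and -1.80 in *rd7* and -1.73 and -1.75 in wild-type retinas, a difference of -0.09. Pigment epithelium markers, which mark the other tissue that holds *Sox9*, had a summed FPKM of 54.6 to 59.7 in *rd7*. In wild-type retinas the sum was 21.2 to 33.6. Of the 5 tested 4 were higher, 3 of them with median-ratio scaling, beside 37.6% and 19.7% of all genes. *Ttr* made the largest part of the sum (39.3 and 34.9 FPKM in *rd7*, 21.1 and 13.1 in wild-type retinas), and *Tyr* was not called (0.03). *Best1* and *Lrat* of the same list had a mean FPKM under 1. *Best1* was lower in both *rd7* libraries (0.11 and 0.0707 against 0.178 and 0.236 FPKM), and *Lrat* was higher in both (1.12 and 0.881 against 0.324 and 0.235). The part of pigment epithelium in the level of *Sox9* was not tested.

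*Hes1*, a repressor of the basic helix-loop-helix family that Notch and other pathways switch on, lies on chromosome 16 from 30065443 to 30067882. It had an FPKM of 7.41 and 5.98 in *rd7* and of 6.7 and 7.23 in wild-type retinas. The *rd7* libraries lay on either side of the wild-type libraries, and the log2 fold change of -0.06 had a wide 95% interval, -0.34 to 0.22. Its sign depended on a single library, being -0.22 without *rd7* replicate 1 and 0.09 without *rd7* replicate 2.

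*Hes5*, the effector most closely tied to Notch activity in progenitors and Müller glia, lies on chromosome 4 from 154335032 to 154336480. Its FPKM was 4.75 and 3.96 in *rd7* and 3.32 and 3.56 in wild-type retinas, so that the groups did not overlap. The log2 fold change of 0.32 did not pass the test (standard error 0.11, 95% interval 0.05 to 0.60, adjusted p = 0.0567 from limma). It rested on an estimated 165 to 230 reads in each library, a counting error of up to 7.78%, the largest among the 5 members for which reads could be estimated. *Hes5* was called higher with the GC and length correction (0.42, adjusted p = 0.034 from limma), and not after median-ratio scaling (0.17, limma adjusted p = 0.238). Its log2 fold change was 0.45 without *rd7* replicate 2 and 0.20 without *rd7* replicate 1. An annotated antisense gene covers 31.8% of its exonic bases.
The log2 ratio of *Hes5* to *Hes1* was -0.64 and -0.59 in *rd7* and -1.01 and -1.02 in wild-type retinas. Replicates differed by at most 0.05 in this ratio, although each gene alone differed more between the *rd7* pools. With 2 libraries a genotype so small a spread can understate the error, as counting alone gave up to 7.78% for *Hes5*. *Hes5* was therefore higher relative to *Hes1* in both *rd7* libraries, by 0.40 on the log2 scale.

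Markers of Müller glia, the cells that hold most of these factors, were read from the same fit. Of 12 markers, 8 were higher in *rd7* and 0 lower (66.7%), with a median log2 fold change of 0.46. *Aqp4*, the water channel of Müller endfeet, had 16.8 and 17.2 FPKM in *rd7* and 10.5 and 10.8 in wild-type retinas (0.67, adjusted p = 0.000975 from limma). *Slc1a3*, the glial glutamate transporter, rose by 0.64, and *Abca8a*, a lipid transporter, by 0.65. *Dkk3*, *Vim*, *Gpr37*, *Mlc1* and *Kcnj10*, the potassium channel Kir4.1, rose by between 0.41 and 0.51. *Glul* (glutamine synthetase, 0.11), *Rlbp1* (CRALBP, 0.15), *Car14* (0.15) and *Apoe* (-0.04) were not called. With median-ratio scaling 7 markers were higher, without *Kcnj10* (0.25, limma adjusted p = 0.0594), and 1, *Apoe*, was lower, and without wild-type replicate 1 the count of higher markers was 3. Of the 6 members listed above for Müller glia (*Rax*, *Lhx2*, *Sox2*, *Sox9*, *Hes1* and *Hes5*), 0 were called in either direction. Other cells also hold some of these genes, *Rax* not excepted, and bulk tissue does not show which cells the RNA came from. The median of the 6 members was 0.02, with a range from -0.16 to 0.32. Over all genes tested 37.6% were higher and 8.80% lower, and 19.7% and 19.6% with median-ratio scaling. With median-ratio scaling 1 of the 6, *Rax*, was lower (median of the 6 -0.13), and after the GC and length correction *Hes5* was higher (0.42).
Each member was also set against the median of the 12 markers in the same library, on the log2(FPKM + 0.1) scale. The marker median was 5.63 and 5.58 in *rd7* and 5.08 and 5.13 in wild-type retinas. Relative to it, 8 members were lower in both *rd7* libraries and *Six6* was higher in both. Of all genes tested 78.7% were lower and 8.38% higher relative to the same median, so that the share of members that were lower is near that of the table. The difference was -0.66 for *Rax*, -0.57 for *Six3*, -0.56 for *Hes1*, -0.50 for *Lhx2*, -0.44 for *Sox9*, -0.35 for *Sox2*, -0.23 for *Pax6* and -0.17 for *Hes5*, and 0.29 for *Six6*.

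**Figure D3:**
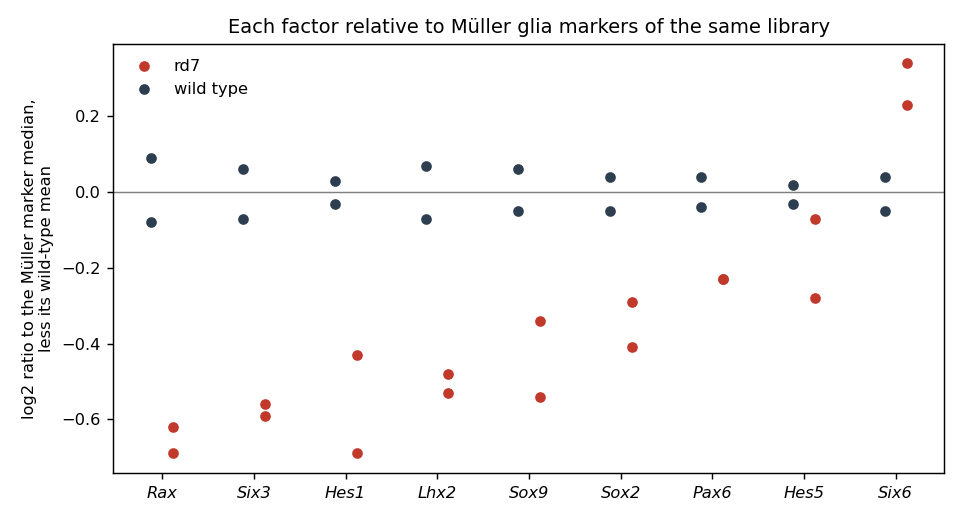
Log2 ratio of each of the 9 genes to the median of 12 Müller glia markers in the same library, with the wild-type mean of the ratio set to 0 and a point for each library. All points of the *rd7* libraries lie under both wild-type points but for *Six6*, which lies above them by 0.29 on average.

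Markers of reactive glia were uneven between the *rd7* libraries. *Gfap*, the intermediate filament of reactive glia, had 10.3 and 28.1 FPKM in *rd7* replicates 1 and 2 and 7.59 and 8.14 in wild-type retinas, and was not called (1.10, adjusted p = 0.0831 from limma). *Stat3* (0.90), *Cd44* (0.90) and *Socs3* (0.80) were higher, 3 of 7 markers (42.9%), and 2 of 7 were with median-ratio scaling. Of all genes tested 37.6% were higher, and 19.7% with that scaling. The summed FPKM of the list was 37.3 to 79 in *rd7* and 28 to 28.6 in wild-type retinas. *rd7* replicate 2, with the higher levels of reactive markers, was also the *rd7* library with less *Hes1*, *Hes5*, *Rax* and *Pax6*. It held more *Sox9*, *Sox2* and *Six6*. Markers of astrocytes and vessels differed too, with a summed FPKM of 74.9 in *rd7* replicate 1 and 53.5 in replicate 2. The part of reactivity or of vessels in the values of these members was not tested.

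In the deposited values, markers of the neurons that keep *Pax6*, *Six3* and *Six6* had log2 fold changes below the 0.78 of *Six6*. For horizontal cells this order was not resolved. The limma intervals of *Onecut1* (0.31 to 1.19) and *Lhx1* (0.15 to 1.13) held 0.78, and that of *Calb1* (0.35 to 0.61) did not. After the GC and length correction *Onecut1* (0.79) lay above *Six6* (0.46), *Lhx1* stood at 0.46 and *Calb1* at 0.07. Of 6 amacrine cell markers, 4 were higher and 1 lower, between -0.29 and 0.38 with a median of 0.27, and their summed FPKM was 220 to 237 in *rd7* and 196 to 202 in wild-type retinas. *Gad2* (0.38) and *Gad1* (0.36), which encode the enzymes of GABA synthesis, and *Chat* (0.30), of cholinergic amacrine cells, were higher, and *Slc18a3*, which carries acetylcholine into vesicles, was lower (-0.29). With median-ratio scaling 0 amacrine markers were higher and 1 was lower. Of 8 ganglion cell markers 2 were higher (1 with median-ratio scaling) and 0 lower, with a median of 0.15 and a largest value of 0.40, that of *Slc17a6*, and their summed FPKM was 522 to 600 in *rd7* and 527 to 545 in wild-type retinas. All 3 horizontal cell markers tested were higher (median 0.64, summed FPKM 36.6 to 37.3 against 26 to 26.2), led by *Onecut1* at 0.75. With median-ratio scaling 2 of them were higher, and after the GC and length correction *Onecut1* was still called (0.79) while *Lhx1* (0.46) and *Calb1* (0.07) were not. Markers of the lens, which also holds *Pax6* and *Six3*, had a summed FPKM of 13.6 to 29.6 in *rd7* and of 25.1 to 55.9 in wild-type retinas, and 0 of the 3 tested were called at the adjusted level of limma. Beside these counts, 37.6% of all genes tested were higher and 8.80% lower, and 19.7% and 19.6% with median-ratio scaling. The part of any of the cells named here in the values of *Six6* and *Pax6* was not tested.

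Genes of the Notch pathway, other *Hes* and *Hey* genes included, were read from the same fit. Over 28 tested of 35 genes, 11 were higher (39.3%) and 2 lower (7.14%), shares near those of all genes, with a median log2 fold change of 0.15. The higher genes were 5 without wild-type replicate 1 and 7 without wild-type replicate 2, and with either left out the lower gene was 1. With median-ratio scaling 10 were higher and 6 lower, against 19.7% and 19.6% of all genes. Among the ligands, *Jag1* was lower, at 17.6 and 18.3 FPKM in *rd7* against 24.7 and 25.9 in wild-type retinas (-0.49, adjusted p = 0.0022 from limma). *Dll1* was higher, at 4.54 and 4.65 against 3.14 and 2.99 FPKM (0.57, adjusted p = 0.0038 from limma). Both were called again with median-ratio scaling (-0.65 and 0.42), and after the GC and length correction they stood at -0.74 and 0.52 and were called. *Jag2* was not called (0.02), and *Dll3* and *Dll4* had a mean FPKM under 1.
Of the receptors, *Notch1* was higher, with 5.17 and 7.52 FPKM in *rd7* and 3.11 and 3.43 in wild-type retinas (0.91, adjusted p = 0.00985 from limma), although the *rd7* pools differed. *Notch2* was higher (0.47) and *Notch3* was not called (0.15), while *Notch4* was under the filter. Of 11 genes of receptor processing and of the nuclear complex 3 were higher, among them *Rbpj* (0.54) and *Adam10* (0.35), and 0 were lower. With median-ratio scaling the calls in this group were 2 higher and 2 lower.
The modulators held the largest differences. *Mfng*, a glycosyltransferase that alters which ligands a receptor answers to, had 8.44 and 7.36 FPKM in *rd7* and 3.6 and 3.11 in wild-type retinas (1.21, adjusted p = 0.00125 from limma). *Mib1*, the ubiquitin ligase that lets a ligand be taken up and pull on the receptor, had 20.6 and 20.7 against 9.42 and 9.69 FPKM (1.10, adjusted p = 0.000251 from limma). *Nrarp*, a target of Notch that limits its activity, rose by 0.65 and *Lfng* by 0.44, while the fringe gene *Rfng* fell by 0.31. Of the 8 modulators 4 were higher and 1 lower, and with median-ratio scaling 4 and 2. Of the other *Hes* and *Hey* genes, *Hey2* was higher, at 6.95 and 8.22 against 3.66 and 3.76 FPKM (1.01, adjusted p = 0.00149 from limma). *Hey1* (0.10) and *Hes6* (-0.13), which opposes *Hes1*, were not called, and with median-ratio scaling *Hes6* was called lower (-0.29). *Hes2*, *Hes3*, *Hes7* and *Heyl* were under the filter.

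**Figure D4:**
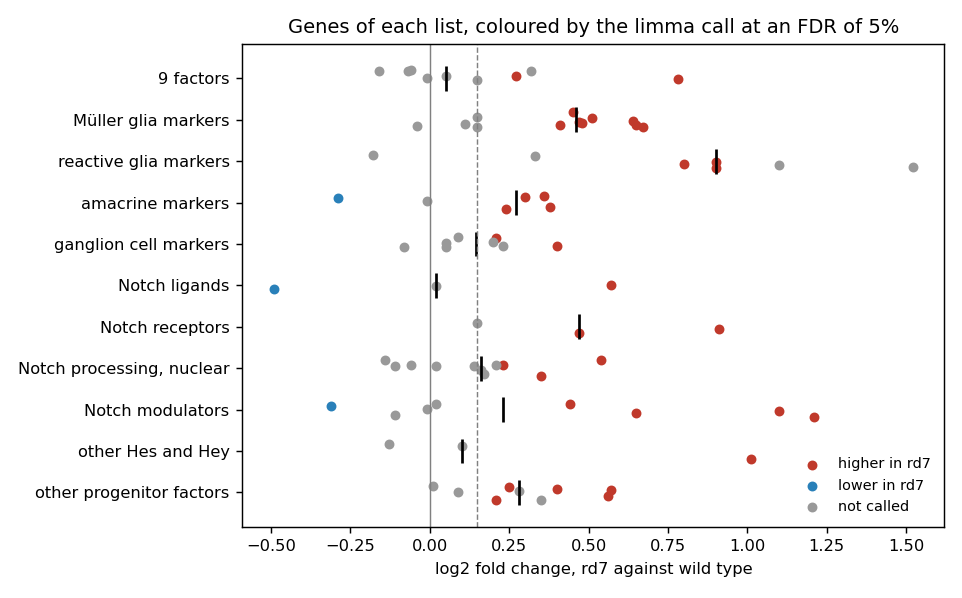
Log2 fold change (*rd7* against wild-type) of the tested genes of each list, with colours for the limma call at an FDR of 5%, black bars for list medians and a dashed line at the median of all genes, 0.15. The Müller glia markers centre at 0.46 and the 9 factors at 0.05, with *Six6* at 0.78 as their highest point.

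Related factors were read in the same way, beside the 37.6% of all genes tested that were higher and the 8.80% that were lower. With median-ratio scaling these shares were 19.7% and 19.6%. Of 13 other progenitor genes 9 were tested, of which 5 were higher and 0 lower. *Otx2*, of photoreceptors and bipolar cells (0.56), was higher also with median-ratio scaling, while the calls of *Nfix* (0.40) and of *Meis2* (0.25), like that of *Meis1*, were lost with it. Markers of bipolar cells, which share *Otx2*, were higher in 5 of 7 genes (median 0.54), and in 4 with median-ratio scaling (median 0.38). *Nr2e1*, the closest relative of *Nr2e3* and itself a progenitor factor, was not called (0.35, adjusted p = 0.072 from limma). *Pax2*, *Foxn4*, *Fgf15* and *Sfrp2* had a mean FPKM under 1. Of the neurogenic genes that HES proteins repress in development, 5 of 10 were tested. *Neurod4* was higher (0.98) and so was *Bhlhe22* (0.63), and *Neurod1*, at 176 to 191 FPKM, was not called (-0.06), but was called lower after median-ratio scaling (-0.21, limma adjusted p = 0.0248) and after the GC and length correction (-0.35, limma adjusted p = 0.00732). With median-ratio scaling 2 of these 5 genes were higher and 2 lower. Of the same family as *Six3* and *Six6*, the genes *Six2*, *Six4* and *Six5* had a mean FPKM under 1. Of 7 other SOX genes tested 1 was higher, *Sox6* (0.80), and 0 were lower. *Mki67*, *Top2a*, *Ccnb1* and *Aurkb*, genes of dividing cells, had a mean FPKM under 1, and *Ccna2* was lower (-0.70). At very low values, *Mki67* (0.084 and 0.0826 FPKM against 0.0101 and 0.0158) was higher in both *rd7* libraries. So was *Top2a* (0.0838 and 0.0791 against 0.00915 and 0.0137), while *Ccnb1* and *Aurkb* overlapped between genotypes. The number of dividing cells was not measured.

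The profiles most like that of *Six6* over the 4 libraries, by the Euclidean distance between log2(FPKM + 0.1) values centred on the mean of each gene, were those of *Rhoj* (0.025), *Uprt* (0.034) and *Mpp6* (0.035), and 68 genes lay within a distance of 0.1. Those most like *Pax6* were *Peli1* (0.015), *Tmem2* (0.019) and *Tmem231* (0.019), and 819 genes lay within 0.1. With 4 libraries a profile holds little beyond the difference between genotypes, so that many genes share it.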

How the data were processed

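RNA-seq libraries of *rd7* (n = 2) and wild-type (n = 2) retinas were compared. Per the labels and the study's methods, the authors mapped single reads to mm9 with TopHat 1.4.1 and used Cufflinks 1.3.0 for the deposited FPKM of each gene in each library. FPKM divides out transcript length and depth, not library composition. A second table holds the authors' own comparison (pooled values, fold changes and p-values) and was not used. Columns were matched to samples by title. Of 22095 loci, 262 carried a status other than OK somewhere and were dropped. Positions count the first base as 1.

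The test was limma 3.58.1 (R 4.3.3) on log2(FPKM + 0.1), for genes whose FPKM averaged 1 or more, with trended eBayes, without a block, two-sided and with Benjamini-Hochberg adjusted p-values over all genes tested. The step was tested on simulated data. Fold changes on this scale understate those of low genes. Exonic length and GC content came from GENCODE M1, whose genome is mm9, by symbol and overlap (96.9% of genes tested), and the GC and length correction subtracted natural splines (4 degrees of freedom) fitted to how far each library lay from the mean of a gene. The worth of 1 read was the mode of FPKM times exonic length in genes with 1 transcript, in a window chosen by eye. It is given only for members whose annotated span is the listed locus, and its errors cover counting only. *Tfap2a*, *Tfap2b* and *Pmel* were not analysed here, and some genes are not reported here.

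The members and the lists were chosen with earlier results of these data known, and no count over a list is independent support. The named genes are the 9 members, *Nr2e3*, all tested Notch ligands, receptors, *Hes* and *Hey* genes and Müller glia markers, up to 4 called genes of each other list by size, and the 3 profiles nearest to the 2 called members. Neighbouring loci, *Gnat1*, *Gfap*, genes under the filter, *Meis1*, *Nr2e1* and *Neurod1* were added after values were seen.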

Additional observations from a re-analysis of the deposited data

How the results depend on the processing

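*Six6* was higher at an FDR of 5% under all 10 alternative fits and thresholds. Its log2 fold changes lay from 0.46 to 0.82 over these fits and those with 1 library left out. A fit without 1 library takes its error from the pair of the other genotype alone. Calls and counts from such fits therefore do not measure how firm a difference is. *Six3* and *Rax* had negative and *Hes5* had positive values throughout, with calls that depended on the setting. The count of higher members was 2, and 1 with median-ratio scaling, quantile normalization, no filter on low FPKM or an FDR of 1%. Leaving out 1 library at a time gave 1 to 3. The count of lower members was 0, and 2 with median-ratio scaling or quantile normalization, 1 with the GC and length correction, and 0 to 1 with a library left out. Signs turned with median-ratio scaling (*Sox2* -0.0066, *Sox9* -0.10), with quantile normalization (*Sox2* -0.011, *Sox9* -0.16), with the GC and length correction (*Pax6* -0.0465, *Lhx2* 0.0053, *Sox9* -0.16), without *rd7* replicate 2 (*Sox9* -0.0222, *Hes1* 0.0892) and without wild-type replicate 1 (*Lhx2* 0.0352). Leaving a library out gave ranges of -0.0222 to 0.127 for *Sox9*, -0.215 to 0.0892 for *Hes1* and -0.0485 to 0.0352 for *Lhx2*.

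Over all genes, 4755 were higher and 1114 lower. The counts were 2249 and 455 without a filter, 2582 and 446 at an FDR of 1%, 2492 and 2479 for median-ratio scaling, 1524 and 1839 once corrected for GC and length and 2350 and 2404 under quantile normalization, and 1293 to 5484 and 224 to 1601 with a library left out, fewest without wild-type replicate 1 (1293 and 224), then without wild-type replicate 2 (2124 and 338). The share of higher calls moves since these scalings set the median fold change near 0 by construction. Müller glia markers higher were 3 without a filter and 3 to 11 with a library left out (the fewest without wild-type replicate 1, the most without *rd7* replicate 2), and 1 was lower with median-ratio scaling. Notch pathway genes higher were 7 without a filter, at a mean FPKM of at least 5 (fewer genes tested) or with quantile normalization, and lower were 5 once corrected for GC and length, 7 under quantile normalization and 6 for median-ratio scaling. With a library left out they were 5 to 13 and 1 to 3. The causes of these changes in the counts were not tested. *Sox9* and *Hes5* gave no value at a mean FPKM of at least 5.

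The libraries share replicate numbers only. Across genes, the deviations of *rd7* and wild-type replicate 1 correlated at r = -0.0265, and with a replicate block 2 members were higher, 0 lower, and 4508 and 1091 of all genes. With 2 pools a genotype, a difference that did not pass the test cannot be told from the spread between pools.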
